A study of Sus scrofa with 9 samples.

Results

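Cytosolic ribosomal proteins are the protein components of the ribosomes that translate nuclear-encoded messages. Their transcripts were measured in longissimus dorsi, a back muscle, of Bama minipigs, a small breed used as a model of obesity. Members were chosen by name: probes whose RefSeq accession belongs to a gene called RPL or RPS followed by a number, RPLP0, RPLP1, RPLP2 or RPSA, with the S6 kinases left out. The rule found 187 probes of 37 genes, out of 6891 named probes of 3196 genes. Of these genes 20 encode proteins of the large subunit and 16 of the small subunit. The remaining gene, RPL7L1, encodes a relative of RPL7 that acts in ribosome assembly. By the same rule the reference gene table holds 84 symbols, and 47 of them, among them RPL4, RPLP1, RPS6 and the muscle paralogue RPL3L, were not analysed here.

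The high-fat high-sucrose group (HFHSD, 6 animals) ate 53% basal feed, 37% sucrose and 10% lard over 23 months, starting when they were 6 months old. The control group (CD, 3 animals) ate standard pig chow over the same period. All animals were gonadally intact, both sexes were used, feed was restricted in amount and given in repeated daily meals, and the animals were fasted overnight before dissection. The sex of each animal is not given, and the labels differ on the number of CD animals (3 in the design, 6 in the growth protocol), of which 3 have an array.

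A ribosome holds a single copy of most of its proteins, and cells make the set together with ribosomal RNA so that subunits can be assembled in the nucleolus. Ribosomal protein messages begin with a pyrimidine-rich tract through which the kinase mTORC1 sets how strongly they are translated, so their protein output can change without a change in message level. Ribosome number is one of the determinants of protein synthesis capacity in muscle, and ribosome biogenesis is known to accompany muscle growth. Some ribosomal protein genes, RPLP0, RPL32 and RPS18 among them, are used as reference genes in quantitative PCR.

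Each animal was measured on 1 single-dye Agilent array, and the array number limits the precision. Levels are log2 of the processed intensity minus the array's 75th percentile, so a level of 0 is that percentile. A difference is the HFHSD mean less the CD mean on the log2 scale, its standard error (SE) is that of limma, and p-values have a Benjamini-Hochberg adjustment over all 27925 tested probes. A gene is represented by its brightest probe. The share of probes well above background was 36.7% on CD 1 and 51.1% to 68.8% on the other 8 arrays, and the SD of the negative controls was 5.66 on CD 1 and 1.67 to 2.65 elsewhere. HFHSD 5 and HFHSD 6 were on a slide of their own that was scanned on another day. The 10 tested myofibre markers, which check the tissue, had a summed signal of 8752 to 13937 times the 75th percentile on the 9 arrays. All 187 ribosomal protein probes were well above background on all 9 arrays and lay in the top 6981 of the 27925 tested probes by mean level.

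Ribosomal protein transcripts were slightly lower in HFHSD muscle for most genes, and no single gene passed the test. The difference was negative for 34 of 37 genes (91.9%), against 57.6% of all 2613 tested named genes, but for only 4 of 37 when normexp background correction preceded the same scaling. The median difference of the 37 genes was -0.20, which is 0.87 times the CD level, and the median of all tested genes was -0.085. With normexp the members' median was 0.28. With the same correction but without CD 1, a setting added after seeing the data, it was -0.21. Single genes ranged from -0.59 for RPL14 to 0.14 for RPS23, and the middle of the distribution ran from -0.27 to -0.11 between the quartiles.

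By limma with Benjamini-Hochberg adjustment 0 of 37 genes passed 0.05, where 0.995% of all tested genes did, and the smallest adjusted p was 0.110, for RPL29. At an unadjusted p under 0.05 there were 3 genes (8.11%), where 18.4% of all tested genes were. The member share was thus below the background. All 6 HFHSD arrays lay below all 3 CD arrays for 7 of 37 genes (18.9%), where 8.88% of all tested genes did, and for 0 genes all 6 lay above, where 4.17% of all did. By probe, 169 of 187 were lower (90.4%, against 52.2% of all tested probes), 0 passed (1.23% of all did, and 0.537% passed and were lower), 12 had an unadjusted p under 0.05 (6.42%, against 16.5%) and 19 did not overlap and were lower (10.2%, against 6.11%). Probes without overlap that were higher numbered 0 among members and made up 4.8% of all. With array weights, or with a variance trend and a robust prior, 1 of 37 genes passed, RPL29 both times, where 4.06% and 2.33% of all tested genes passed. In whole muscle, fewer cells of a type and less RNA per cell cannot be told apart.

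The small differences were set against a small spread. The median SD within the groups was 0.19 for the ribosomal protein genes and 0.39 for all tested genes. The members were also much brighter, with a median level of 8.41 against 0.43. Spread was not compared at equal brightness, so a small spread particular to the members is not shown. The median SE of a member's difference was 0.19, and the 95% interval of the difference held 0 for 34 of 37 genes. All 37 estimates were smaller than 1 on the log2 scale.

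**Figure D1:**
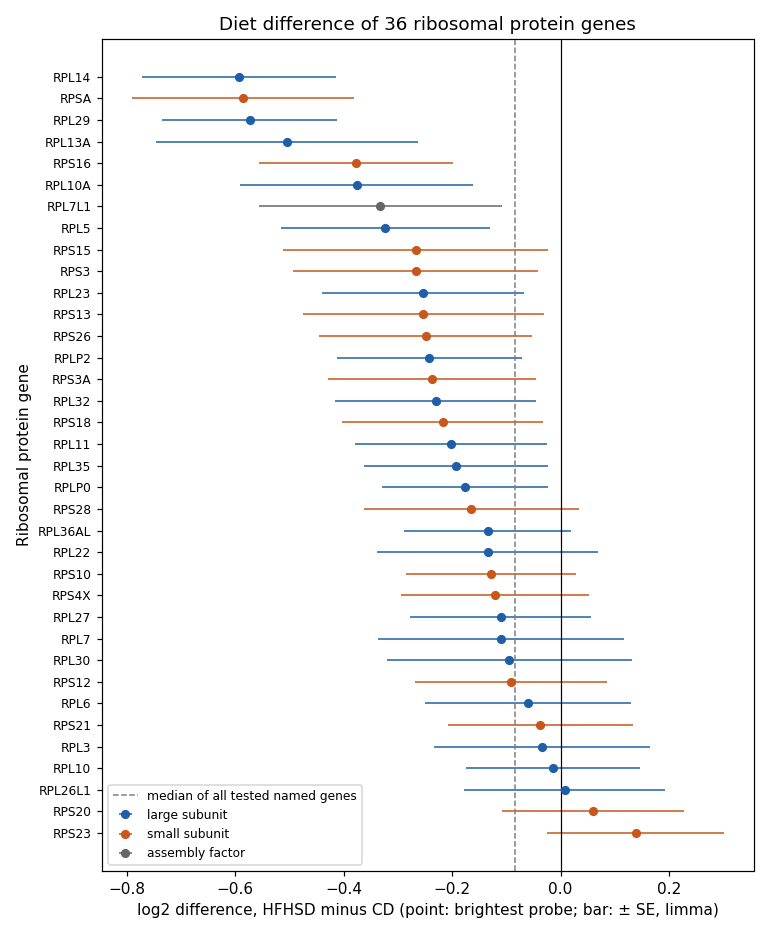
Diet difference of 36 of the 37 ribosomal protein genes (HFHSD minus CD, log2, horizontal axis), coloured by subunit, as the limma estimate of the brightest probe with its SE as a bar. The dashed line is the median of all tested named genes, -0.085. RPL14, RPSA, RPL29 and RPL13A lie furthest to the left at -0.59 to -0.50, and 3 genes lie right of 0. With normexp background correction before the same scaling, the median of the 37 genes turns to 0.28.

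The 4 genes with the most negative differences were RPL14, RPSA, RPL29 and RPL13A. Their sign was negative in all 26 alternative ways of processing, and 22 other members changed sign only with normexp and 75th percentile scaling. That setting raised the members as a group, so being the lowest they were the ones left below 0, and their sign there adds nothing further. The filters, the variance trend and the deposited series table leave a gene's difference as it is, so they could not change a sign. Others of the 26 only leave out an array, and the 4 genes were picked for their low values. The number of settings is thus no measure of support.

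RPL14, a large subunit protein on the outer face of the ribosome, had levels of 7.85, 7.94 and 7.72 on the 3 CD arrays. On the HFHSD arrays its level was 7.01 at the lowest, 7.22 at the median and 7.55 at the highest. Every HFHSD array was below every CD array. The means were 7.84 ± 0.11 (SD, n = 3) and 7.24 ± 0.19 (SD, n = 6), a difference of -0.59 (SE 0.18, 95% interval -0.99 to -0.19) or 0.66 times the CD level, with a limma adjusted p of 0.129. All 5 of its probes were lower, by -0.88 to -0.47, 3 of them without overlap, and 4 of them had an unadjusted p under 0.05. The probe at -0.88 had the smallest limma adjusted p among all member probes, 0.0802, and it passed when only probes above background on all 9 arrays were tested (0.0389), with array weights (0.0290) and with a variance trend and robust prior (0.0438). In those settings 1, 3 and 2 of 187 member probes passed, where 4.64%, 4.32% and 2.19% of all tested probes did, so the member shares were below the background.

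RPL29, a small basic protein of the large subunit that is also known as a heparin-binding protein of the cell surface, had CD levels of 8.65, 8.70 and 8.60. Its HFHSD levels ran from 7.86 through a median of 8.09 to 8.26. The groups did not overlap, and CD 1, the array with the fewest probes above background, lay between the other CD arrays. The difference was -0.57 (SE 0.16, 95% interval -0.93 to -0.21), with CD at 8.65 ± 0.054 (SD, n = 3), HFHSD at 8.08 ± 0.13 (SD, n = 6) and a limma adjusted p of 0.110. The adjusted p was 0.0446 with array weights and 0.0416 with the variance trend. Its other probes were lower as well, the smallest difference of the 3 being -0.31, but their groups overlapped. Only the brightest of the 3 had an unadjusted limma p under 0.05.

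RPSA, a small subunit protein that is also the laminin receptor of the cell surface, had CD levels of 7.34, 7.08 and 6.89. Its HFHSD levels were 6.09, 6.58 and 6.74 at the lowest, the median and the highest. No HFHSD array reached the lowest CD array, CD 3. The difference was -0.59 (SE 0.20, 95% interval -1.04 to -0.13, limma adjusted p = 0.185). All 6 probes of RPSA were lower, by -0.59 to -0.39, and the groups did not overlap for 5 of them.

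RPL13A, a large subunit protein that can leave the ribosome to silence inflammatory messages as part of the GAIT complex, had CD levels of 7.57, 7.21 and 6.95. Its HFHSD levels were 6.42, 6.67 and 7.16. Here the groups overlapped: HFHSD 1 and HFHSD 3 were above CD 3. The difference was -0.50 (SE 0.24, limma adjusted p = 0.339), and the other of its 2 probes stood at -0.54.

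**Figure D2:**
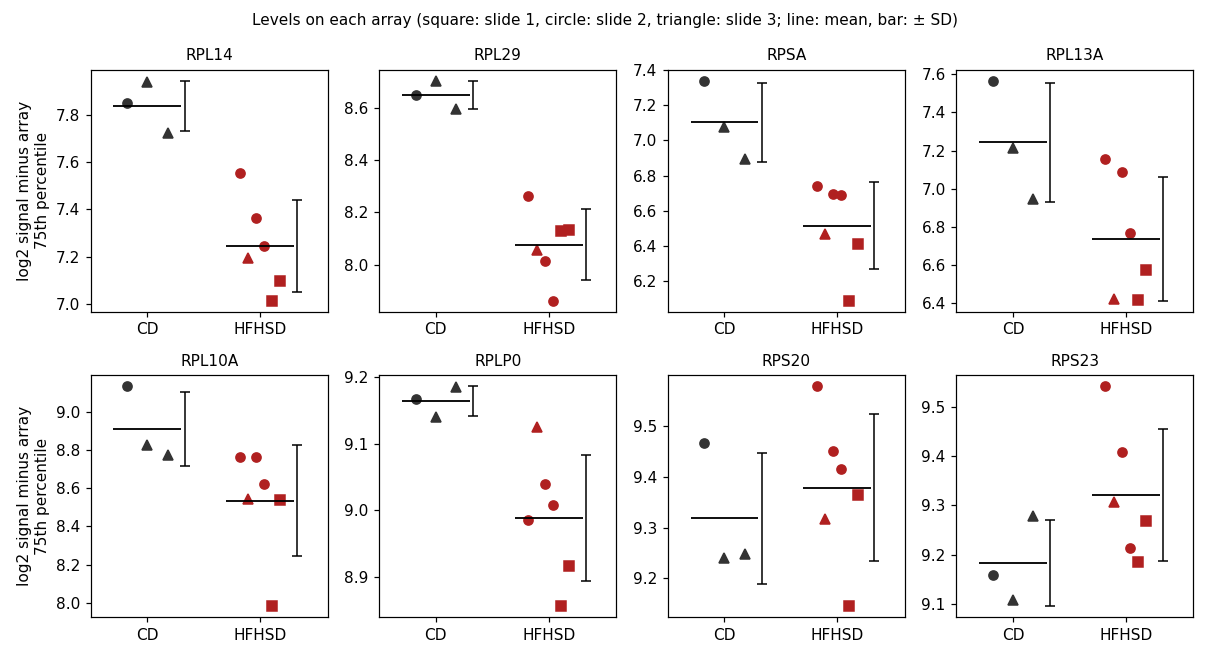
Level of 8 ribosomal protein genes on each array (log2 signal minus the array 75th percentile), CD in grey (n = 3) and HFHSD in red (n = 6), with the marker giving the slide, the line the group mean and the bar the SD. Each panel has its own vertical axis, which does not start at 0. The groups do not overlap for RPL14, RPL29, RPSA, RPL10A and RPLP0, and they overlap for RPL13A, RPS20 and RPS23.

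The stalk of the large subunit recruits the translation factors that hydrolyse GTP, and RPLP0 is its base while RPLP2 forms its flexible arms. RPLP0 levels were 9.17, 9.14 and 9.18 on the CD arrays, the tightest CD group of the members, with an SD of 0.022. Its HFHSD levels were 8.86, 9.00 and 9.12, all below the CD arrays. The difference was small, -0.18 (SE 0.15, 95% interval -0.52 to 0.17, limma adjusted p = 0.647), and all 13 RPLP0 probes were lower, by -0.30 to -0.10. Only 1 of those 13 had groups that did not overlap. RPLP2 had CD levels of 10.08, 9.82 and 9.94 and HFHSD levels of 9.48, 9.71 and 9.93. Only HFHSD 4 was above the lowest CD array, CD 2. Its difference was -0.24 (SE 0.17, limma adjusted p = 0.546), from a single probe.

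RPL5 and RPL11 join the small ribosomal RNA of the large subunit in a particle that, when free, binds MDM2 and so stabilises p53. RPL5 had CD levels of 9.25, 9.21 and 9.10 and HFHSD levels of 8.45, 8.99 and 9.04 at the lowest, the median and the highest. The groups did not overlap, though HFHSD 1 to 3 came close to CD 3. The difference was -0.32 (SE 0.19, limma adjusted p = 0.458). All 18 RPL5 probes, the most of any member, were lower, by -0.41 to -0.18. Only 3 of those 18 had groups that did not overlap. RPL11 stood at -0.20 (SE 0.18), with its 3 probes between -0.24 and -0.19.

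RPL10A, which lies at the other stalk of the large subunit, had CD levels of 9.13, 8.83 and 8.77. Its HFHSD levels were 7.98, 8.58 and 8.76, and HFHSD 1 and HFHSD 3 ended just under CD 3. The difference was -0.38 (SE 0.22, limma adjusted p = 0.437), and all 8 probes were lower, 4 of them without overlap. RPL10, the similarly named protein near the catalytic centre that joins the subunit last, had CD levels of 9.03, 9.10 and 8.95 and HFHSD levels of 8.89, 8.98 and 9.23. The CD range lay inside the HFHSD range. RPL10 differed by -0.014 (SE 0.16, 95% interval -0.37 to 0.34). Of its 5 probes 4 were lower and the fifth stood at 0.26.

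RPL23, on the face that joins the small subunit, differed by -0.25 (SE 0.19). RPL35, at the exit of the nascent chain tunnel, where chaperones and the signal recognition particle dock, differed by -0.19 (SE 0.17). RPL32, one of the reference genes, had CD levels of 9.38, 8.92 and 8.78 and HFHSD levels of 8.70, 8.75 and 8.97. CD 1 stood above all other arrays, and CD 2 and CD 3 lay within the HFHSD range. RPL32 differed by -0.23 (SE 0.19, limma adjusted p = 0.613), and its 7 probes were all lower. Without CD 1 it stood at -0.055. RPL22, which binds RNA outside the ribosome too, RPL36AL, RPL27, RPL7 and RPL30 lay between -0.13 and -0.094, each with overlapping groups. All 14 RPL7 probes were lower, yet by no more than -0.17. RPL6 stood at -0.060 (SE 0.19), with 11 of 13 probes lower, and RPL3, which shapes the catalytic centre, at -0.034 (SE 0.20) by its only probe. The CD levels of RPL3 were 2.89, 2.51 and 2.80, and the HFHSD levels ran from 2.24 through 2.76 to 2.90, a range that held all CD arrays. RPL26L1, a close paralogue of RPL26, differed by 0.0076 (SE 0.18), with 1 of 4 probes lower. RPL7L1, the assembly factor, differed by -0.33 (SE 0.22, limma adjusted p = 0.526) and its 3 probes were all lower.

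Large subunit genes as a group were lower for 19 of 20, with a median of -0.18, and 5 of 20 were lower without overlap. Small subunit genes were lower for 14 of 16, with a median of -0.23, and 2 of 16 were lower without overlap. Among all tested genes 57.6% were lower and 8.88% were lower without overlap. The subunits thus had similar medians, and the difference between them was not tested.

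RPS16, a protein at the decoding side of the small subunit, was the other small subunit gene besides RPSA without overlap. Its CD levels were 6.87, 6.55 and 6.49, and its HFHSD levels were 6.06, 6.29 and 6.43. The gap between HFHSD 6 and CD 3 was narrow. The difference was -0.38 (SE 0.18, limma adjusted p = 0.335), with both probes lower, though on the dimmer probe the groups overlapped.

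The next small subunit genes lay between -0.27 and -0.22. RPS3, a protein of the messenger RNA entry site that also repairs DNA, and RPS15, a head protein, both differed by -0.27 (SE 0.23 and 0.24), but without CD 1 by -0.15 and -0.12. RPS3A differed by -0.24 (SE 0.19), with all 8 probes lower, by -0.40 to -0.24. RPS18, a reference gene, had CD levels of 7.38, 7.72 and 7.62 and HFHSD levels of 7.14, 7.31 and 7.70. The array with the highest HFHSD level, HFHSD 6, was above CD 1 and CD 3. RPS18 differed by -0.22 (SE 0.19, limma adjusted p = 0.640) and RPS26, which lies at the messenger RNA exit, by -0.25 (SE 0.20). RPS13 stood at -0.25 (SE 0.22). Each of these genes had overlapping groups.

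RPS28, RPS10, RPS4X, RPS12 and RPS21 lay between -0.16 and -0.037, all with overlap. RPS20 and RPS23 were the small subunit genes with positive estimates. RPS20, a head protein, had CD levels of 9.47, 9.24 and 9.25 and HFHSD levels of 9.14, 9.39 and 9.58, so the HFHSD arrays spanned the whole CD range. Its difference was 0.060 (SE 0.17, 95% interval -0.31 to 0.44), and 6 of 7 probes were above 0.

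RPS23, which helps to keep decoding accurate, had CD levels of 9.16, 9.11 and 9.28 and HFHSD levels of 9.18, 9.29 and 9.54. Its difference was 0.14 (SE 0.16, 95% interval -0.23 to 0.50, limma adjusted p = 0.754). The estimate came from the brightest probe, while the other 3 of its 4 probes were lower, the lowest at -0.20. With the mean of its probes RPS23 stood at -0.070, and with median scaling at -0.00895.

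Several probes of a gene are repeated measurements of 1 transcript in the same 9 animals, so they show technical agreement and add no animals. Of the 31 genes with several probes 22 had all probes lower, 9 had probes of both signs and 0 had all probes higher. The median SD between the probes of a gene was 0.060, and the SD between the genes' median differences was 0.15. Probes of 1 gene therefore lay closer together than genes did. The genes of both signs included RPS10, RPS4X, RPL6, RPL10, RPL26L1, RPS20, RPS21 and RPS23. RPS10, a small subunit protein at the messenger RNA entry, was the widest: 4 probes lay between -0.33 and -0.13, and 2 dimmer ones at 0.55 and 0.36. On those dimmer RPS10 probes HFHSD 1 stood at 3.45 and 3.35, and the CD arrays ran from 1.19 to 1.56 on the former and from 1.04 to 1.82 on the latter.

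**Figure D3:**
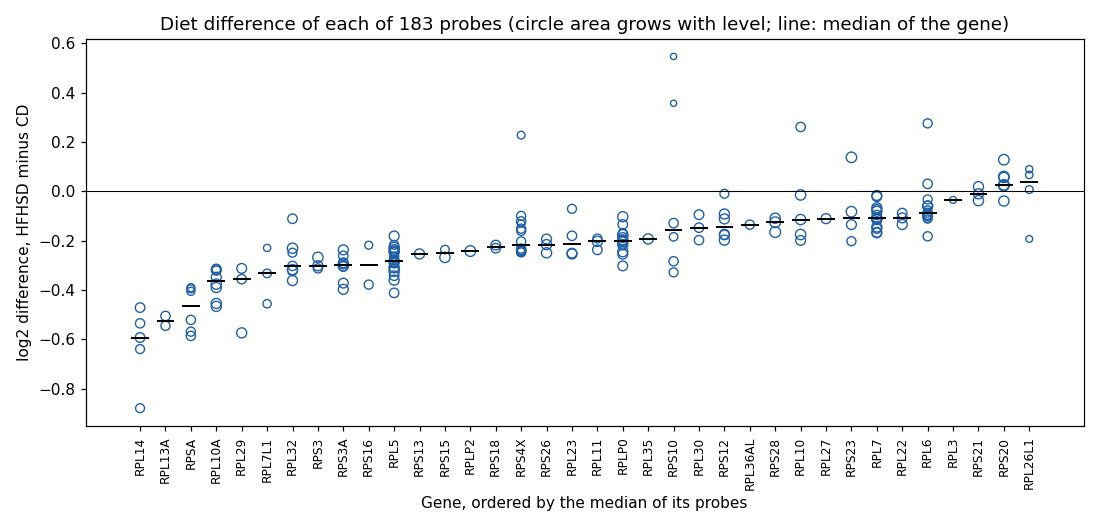
Diet difference (HFHSD minus CD, log2) of 183 of the 187 ribosomal protein probes, grouped by gene and ordered by the gene's median, with the circle area growing with the probe's level and the line marking the median. Of the 31 genes with several probes 22 have all of them below 0, and RPL14 and RPS10 hold the lowest probe (-0.88) and the highest (0.55). With normexp background correction before the same scaling, 30 of 37 genes change sign.

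Members also varied together between arrays of the same diet. The median level of the 37 genes was 8.67, 8.56 and 8.46 on the CD arrays and 8.59, 8.29, 8.56, 8.44, 8.10 and 8.15 on HFHSD 1 to 6. The HFHSD arrays lay at 8.36 ± 0.21 (SD, n = 6) and CD at 8.56 ± 0.10 (SD, n = 3), and HFHSD 1 was above CD 2 and CD 3. HFHSD 5 and HFHSD 6, the arrays of slide 1, were the lowest of all. HFHSD 5 was the lowest array for 23 of 37 genes and CD 1 the highest for 19. The same counts were not made over all tested genes. The median of all tested genes was also highest on CD 1, at 0.68, against 0.36 to 0.48 on the other arrays, with HFHSD 5 at 0.37.

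Within the HFHSD group 31 of 37 genes were lower on slide 1 than on the other 4 arrays, with a median difference of -0.31, where the median of all tested genes was -0.18. Among probes, 161 of 187 (86.1%) were lower on slide 1, where 55.6% of all tested probes were. The difference between slides inside 1 diet was thus larger than the median difference between the diets. Without slide 1 the diet median was -0.098, with 28 of 37 genes lower, and this setting was added after seeing the data. Slides 2 and 3 hold both diets, and within them the median was -0.16 and -0.16, with 32 of 37 genes lower each time. Slide 2 has 1 CD array, CD 1, and slide 3 has 1 HFHSD array, so each of these values rests on a single array in 1 diet. With slide as a fixed block the median was -0.17, which rests on the contrasts within slides 2 and 3 and is not separate from them. RPL14 then stood at -0.54 (limma adjusted p = 0.155), RPSA at -0.58 (0.137), RPL29 at -0.60 (0.132) and RPL13A at -0.61 (0.149). Slide 1 holds no CD array, so slide and animal cannot be told apart there.

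Single genes depended on single arrays more than the median did. Leaving out 1 array moved the difference of 22 of 37 genes by over 1.5 times or changed its sign, many of them genes near 0. CD 1 did so for 16 genes, and for 13 of these the difference shrank or turned positive. Without CD 1, RPS28 stood at -0.018, RPL7 at -0.013, RPL22 at -0.038, RPL27 at -0.043, RPS26 at -0.11, RPL11 at -0.13 and RPS13 at -0.17. Without HFHSD 5, RPL7 stood at -0.017 and RPL30 at -0.011. Without CD 2, RPS18 stood at -0.14, RPL36AL at -0.083 and RPS10 at -0.072. RPL14, RPSA, RPL29, RPL13A, RPS16, RPL10A, RPL5 and RPLP0 moved by no more than 1.5 times.

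The slide difference was not the same for all probes of a gene. Both slide 1 arrays were below all other HFHSD arrays for 94 of 187 probes and above all of them for 7. The same counts were not made over all tested probes, of which 55.6% had a lower mean on slide 1. A share particular to the members is therefore not shown by them. RPS12, a small subunit protein, gave both patterns, an example chosen after its values were seen. Its brightest probe stood at 8.23 and 8.15 on HFHSD 5 and HFHSD 6, below the other HFHSD arrays (8.43 to 8.53). A dimmer RPS12 probe stood at 6.65 and 6.77 on the same arrays, above the others (5.26 to 5.93) and above all 3 CD arrays (5.67 to 6.23). The diet differences of these probes were -0.092 and -0.0094. RPL10, RPL6, RPS4X and RPS23 also held a probe that was higher on slide 1, by 0.70, by 0.52 and 0.83, by 0.81 and by 0.42, and these too were picked on their values.

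The sign of the members' median depended on CD 1 once normexp was applied. With normexp and the 75th percentile the members' median level was 6.78 on CD 1 and 8.33 and 8.25 on CD 2 and CD 3, and the HFHSD arrays ran from 7.79 to 8.23. All of the HFHSD arrays were above CD 1 and below the other CD arrays. The 6981 brightest probes changed sign with the members: their median difference was 0.30 with normexp, -0.099 with normexp but without CD 1, and -0.097 in the main processing. With quantile normalisation the median of those probes was -0.0045 and the members' median was -0.10, with 28 of 37 genes lower. With normexp and quantile normalisation those values were -0.0027, -0.10 and 31 of 37.

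**Figure D4:**
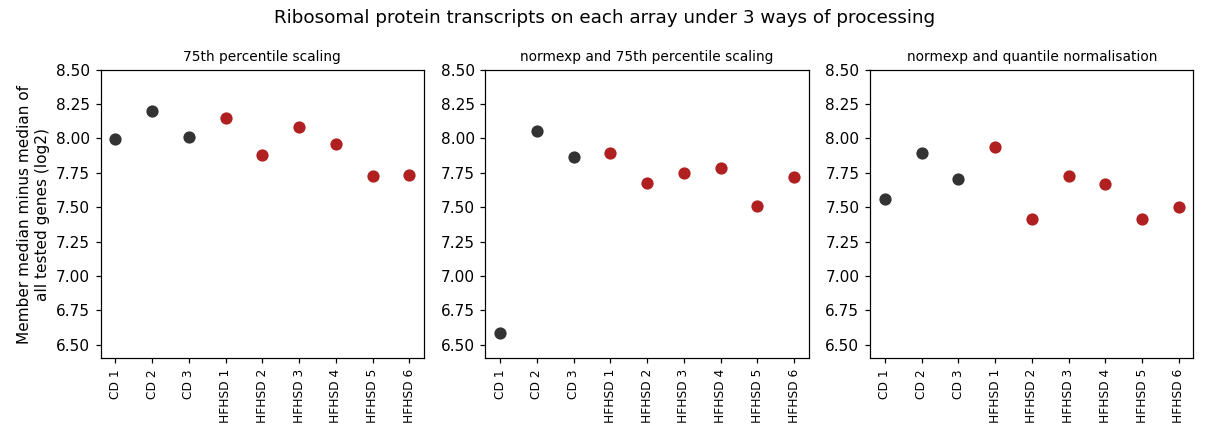
Median level of the 37 ribosomal protein genes minus the median of all tested named genes (log2) on each array, CD in grey and HFHSD in red, under 3 ways of processing. The vertical axis does not start at 0. CD 1 lies at 7.99 with 75th percentile scaling and at 6.59 with normexp and the same scaling, which puts it below all other arrays, and HFHSD 5 and HFHSD 6 lie at 7.73 in the left panel.

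To show which genes departed from the rest, each array was also centred on the median of the 37 genes, a quantity added after seeing the data. RPL14 and RPSA stood at -0.38 relative to the other members (limma adjusted p = 0.176 and 0.203), RPL29 at -0.36 (0.346) and RPL13A at -0.30 (0.400). RPS23 stood at 0.35 (0.287) and RPS20 at 0.27 (0.366). By this measure 0 of 187 member probes passed, where 2.42% of all tested probes did, and 0 of 37 genes, where 2.3% of all tested genes did. Of the probes 5 had an unadjusted p under 0.05, where 18.6% of all did. No member was thus shown to depart from the rest of the ribosome.

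The genes around the ribosome were compared from lists of named genes. By limma 0 genes passed in each of the 6 translation lists, where 0.995% of all tested genes did. Lists this short would hold few or no called genes at that share. Among all tested genes 57.6% were lower, beside which the counts of lower genes below are to be read. Of 7 mitochondrial ribosomal proteins, which serve the separate ribosomes of mitochondria, 6 were lower. Their median was -0.28, 0.075 with normexp, and -0.13 with normexp but without CD 1. MRPL16 stood lowest of those named, at -0.86 (SE 0.28, limma adjusted p = 0.160), followed by MRPL2 at -0.52 (0.246).

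The 2 tested genes of the elongation factor list had opposite signs. EEF1A1, which delivers aminoacyl-tRNA and whose message carries the same pyrimidine tract as those of ribosomal proteins, was higher by 0.59 (SE 0.24, limma adjusted p = 0.251), and all 18 of its probes were higher. EEF1E1, listed by its name but a scaffold of the aminoacyl-tRNA synthetase complex, stood at -0.90 (SE 0.28, 0.143). Among 8 genes listed by name as initiation factors, EIF4A3 and EIF4E2 included, 7 were lower. Their median was -0.31, 0.027 with normexp, and -0.25 with normexp but without CD 1. EIF1AX, which helps to find the start codon, was the exception at 0.95 (SE 0.22, limma adjusted p = 0.0653), and EIF1B, a start codon selection factor, stood at -0.91 (SE 0.23, 0.0822), with all 7 probes lower. Of 5 other messages with a pyrimidine tract, EEF1A1 included, 4 were lower, with a median of -0.30 (0.26 with normexp, -0.27 with normexp but without CD 1). HNRNPA1, a splicing regulator, stood at -0.87 (SE 0.22, limma adjusted p = 0.0867). Of the 24 alternatives with a test EIF1AX passed in 8, EIF1B in 4, HNRNPA1 in 4 and EEF1A1 in 1.

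Ribosome biogenesis genes were lower for 8 of 8 tested, where 57.6% of all tested genes were. Their median of -0.52 stayed negative with normexp, at -0.28, and was -0.46 with normexp but without CD 1. The list also named RNA polymerase I genes, but no subunit of that enzyme was among the tested genes. EIF6 is counted both here and among the initiation factors. NOP56, a core protein of the particles that methylate ribosomal RNA, had CD levels of 4.77, 4.95 and 5.20, and its 6 HFHSD levels ran from 3.99 to 4.31. No HFHSD array reached the CD range. Its difference was -0.85 (SE 0.17) and its limma adjusted p of 0.0512 did not pass, though it passed in 7 of 24 alternatives with a test (range 0.0187 to 0.632). NOP2, a ribosomal RNA methyltransferase of the nucleolus, stood at -0.89 (SE 0.24, limma adjusted p = 0.0997; 2 of 24 alternatives), also without overlap. Of 6 genes of the mTORC1 and S6 kinase pathway 5 were lower, with a median of -0.40 (-0.022 with normexp, -0.35 with normexp but without CD 1). The list pools genes of different roles (MTOR, RRAGD, LAMTOR2, EIF4EBP2, AKT1 and DDIT4). Its count and median therefore give no direction for the activity of the pathway, which was not measured. MTOR, the kinase, stood at -0.48 (SE 0.20, limma adjusted p = 0.261) and RRAGD, a GTPase that brings it to the lysosome, at -1.02 (SE 0.33, 0.154).

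Markers of muscle fibres and of other cell types were read on the same arrays. The 7 tested adipocyte markers were all higher in HFHSD, with a median of 1.49 (0.78 with normexp, 0.92 with normexp but without CD 1), and their summed signal was 85.8 to 115 times the array's 75th percentile in CD and 111 to 369 times in HFHSD. CIDEA, a lipid droplet protein, passed at 1.49 (SE 0.28, limma adjusted p = 0.0378), and it passed in 10 of 24 alternatives (range 0.0144 to 0.222). PLIN1, which coats fat droplets, passed the background call on none of the CD arrays. It was thus tested only because of its HFHSD arrays, and its being higher is no support. The count of 7, the median and the summed signal include it. Of 10 myofibre markers 8 were lower, with a median of -0.18 (0.34 with normexp, -0.048 with normexp but without CD 1) and a summed signal of 10494 to 13937 times that percentile in CD and 8752 to 11371 times in HFHSD. TNNT3, the fast-fibre troponin T, stood at -1.04 (SE 0.29, limma adjusted p = 0.108) and MYH2, a fast myosin, at -0.996 (SE 0.32, 0.158). The part of fat or fibre content in the ribosomal protein differences was not tested.

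Medians of the other markers were -0.036 for 3 macrophage and leukocyte genes (summed signal 8.97 to 14.3 in CD and 3.41 to 13.7 in HFHSD), 0.00086 for 3 endothelial genes (27.0 to 29.1 and 20.7 to 35.3) and -0.028 for 2 fibroblast genes (62.8 to 129 and 76.0 to 125). Among them CD163, a macrophage scavenger receptor, stood at -1.13 (SE 0.55), CD14 at -0.036 (SE 0.28), PECAM1 at -0.18 (SE 0.21), VWF at 0.094 (SE 0.29), COL1A2 at -0.21 (SE 0.28) and DCN at 0.15 (SE 0.26), and 0 passed. Of the 3 blood genes listed, 0 had a named probe.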

How the data were processed

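Longissimus dorsi RNA of 6 HFHSD and 3 CD animals was measured with Cy3 on Agilent arrays, 1 per animal. Each deposited scanner file lists linear intensity values by spot, extracted by the authors with Agilent Feature Extraction 10.7.3.1, per the file headers. The processed signal is background-subtracted and not scaled between arrays, and the deposited series table holds the same intensity values, with 0 spots differing on each array. Other processing by the authors is not given in the sources used here.

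Spots marked as outliers and control spots were left out, and 22 of 43603 probes were dropped for outliers. The log2 of the deposited signal was averaged over the spots of a probe, and the array's 75th percentile over these probe averages was then subtracted. The 27925 probes well above background on at least 3 arrays were tested with limma 3.58.1 in R 4.3.3 (lmFit and eBayes, two-sided, no covariates, all 9 arrays), with Benjamini-Hochberg adjustment over all of them and a threshold of 0.05. Unversioned accessions were matched to RefSeq's gene table (assembly Sscrofa11.1), used for names only, because the array files name no build. Slide 1 held HFHSD 5 and 6, slide 2 HFHSD 1, 3, 4 and CD 1, and slide 3 HFHSD 2, CD 2 and CD 3. Replicate numbers follow the order of deposit and only name animals.

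Alternatives were quantile normalisation, other scalings, normexp with an offset of 50, other filters, slide as a block, array weights, a variance trend, the mean of a gene's probes and leaving out arrays. Normexp without CD 1 and leaving out slide 1 were added after seeing the data. Normexp used the median spot signal, since the column of mean signals planned for it was absent from the columns used. The scripts were tested on simulated data. Members and lists were chosen with earlier results of these data known. Genes named are the 5 members with the most negative and the 5 with the most positive difference, stalk, RPSA, paralogue and reference genes, members with probes of both signs, and the 2 genes with the smallest p or any called gene of each other list. Other members are described because every member is accounted for, except that 1 gene is in the counts and medians but is not reported here on its own.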

Additional observations from a re-analysis of the deposited data

Results flagged for a closer look

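Among the 6 HFHSD arrays, 2 of 37 ribosomal protein genes had an array far from the others, where chance gives about 1 in 20 groups. The member share is thus near that of chance, and the same count was not made over all tested genes. Both cases are HFHSD 5, the lowest array for 23 of 37 genes, so they are not separate events. RPL10A was lowest on HFHSD 5, at 7.98 against 8.54 to 8.76 on the other HFHSD arrays, and the gap was 0.713 of the group's range, above Dixon's critical value for 6 samples. RPL3 was lowest on HFHSD 5 as well, at 2.24 against 2.67 to 2.90, with a gap of 0.660 of the range. Without HFHSD 5 the difference of RPL10A was -0.27 and that of RPL3 was 0.058. The median of the 37 genes was then -0.15.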

How the results depend on the processing

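No paired analysis was possible because the replicate numbers follow the order of deposit and pair no animals. No member gene passed the threshold, except RPL29 in 2 alternatives (1 called gene with array weights, 1 with a variance trend and robust prior, where 4.06% and 2.33% of all tested genes passed). The median of the 37 genes kept its negative sign in all alternatives but normexp with 75th percentile scaling, where it was 0.28 and 4 genes were lower. Leaving out each array in turn gave -0.24 to -0.15. Median scaling lowered all genes alike, to a median of -0.23 for all tested genes and -0.35 for the members. The causes were not tested, beyond the effect of leaving out CD 1. All members were well above background but lay among the brightest probes, whose median moved with the scaling.

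With normexp and 75th percentile scaling the sign turned for 30 genes, among them RPLP2 0.19, RPS28 0.26, RPLP0 0.33, RPL10 0.43, RPL5 0.12, RPS3 0.21, RPS15 0.22, RPL32 0.36, RPL35 0.34, RPL11 0.26, RPL10A 0.11, RPS21 0.40, RPL7 0.30, RPS26 0.20, RPL6 0.35, RPS12 0.33, RPS13 0.23, RPL22 0.33, RPL23 0.16, RPL27 0.31, RPS3A 0.25, RPL30 0.46, RPS18 0.22, RPS10 0.31, RPS4X 0.34, RPL36AL 0.29, RPS16 0.16, RPL7L1 0.19 and RPL3 0.29. Quantile normalisation turned RPL10 0.070, RPS21 0.052, RPL6 0.049, RPL27 0.031, RPL30 0.022 and RPL3 0.047. The percentile over probes detected on all arrays turned RPL10 0.072, RPS21 0.049, RPL6 0.026 and RPL3 0.052. Median scaling turned RPS20 -0.087, RPS23 -0.00895 and RPL26L1 -0.14. Normexp with quantile normalisation turned RPL10 0.034, RPS21 0.0037 and RPL30 0.072. Slide as a fixed block turned RPS12 0.045, RPL30 0.0045 and RPL3 0.036. Array weights turned RPS21 0.0049, RPL6 0.031 and RPL3 0.047. Leaving out slide 1 turned RPL7 0.065, RPL30 0.086, RPS12 0.0021, RPL6 0.070, RPS21 0.012 and RPL3 0.067. The mean of a gene's probes turned RPS23 -0.070 and RPL26L1 -0.00702. Leaving out single arrays gave -0.045 to 0.077 for RPL26L1, -0.058 to 0.022 for RPL10, -0.11 to 0.033 for RPL6, -0.15 to 0.058 for RPL3, -0.12 to 0.054 for RPS21 and -0.19 to 0.021 for RPS12.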
